A study of Mus musculus with 5 samples.

Results

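The data described here are the levels of 9 mouse genes for lipoproteins and lipid transport, Apoe, Apod, Clu, Abca1, Abcg1, Pltp, Lpl, Lrp1 and Vldlr, in RNA-seq of cultured brain cells. The genes were chosen by name, as the rows whose RefSeq transcript carries the symbol of a glial lipoprotein, an ABC transporter, a lipid transfer protein, a lipase or a lipoprotein receptor. Each of the 9 had 1 row among the 20178 transcripts of each library, and all 9 had FPKM > 1 in at least 1 library of every pair compared.

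RNA from 5 cultures of ICR mouse cells was sequenced, and each condition has 1 library without a replicate. The cells of 4 libraries are labelled astrocyte progenitor cells of postnatal day 5 after 2 passages. Of these, 3 came from the ventral midbrain (VM), namely an untransduced library, a library titled C and a library titled NF, and 1 came from the cortex (Ctx) and received no virus. The fifth library is labelled neural progenitor cells (NPCs) of the cortex of embryonic day 12, also after 2 passages. Its label is in doubt, since the summed markers of astrocytes and of oligodendrocytes were higher in it than in the Ctx astrocyte library. The values are given with the marker lists, and NPC is used here as the name of that library only. Per the study's methods, the lentiviruses carried mouse Nurr1 (gene Nr4a2) and rat Foxa2 behind a CMV promoter, which acts in any transduced cell, and the control virus carried the empty backbone. The titles and the treatment entries of the libraries titled C and NF contradict each other. The treatment entry of the library titled C names the Nurr1 and Foxa2 viruses, and that of the library titled NF names the mock virus. The titles were followed, so C stands for the control virus and NF for Nurr1 plus Foxa2, and with the treatment entries each difference between these libraries would change its sign. Nr4a2 had 81 reads in the untransduced VM library, 53 in C and 183 in NF, and Foxa2 had 68, 15 and 216. This order goes with the titles but does not settle the labels, since there was 1 library of each kind and the untransduced library held more reads of both genes than C. Even in NF both genes had few reads, 183 and 216 of 20338910 counted. Whether these reads came from the viruses or from the cells' own genes was not tested. Reads of rat Foxa2 could be counted only where they aligned to the mouse genome. Of the measured transcripts, 0.990% differed at least 2-fold between NF and the untransduced library, against 15.8% between C and the untransduced library. That closeness of NF would go with the treatment entries if a mock virus changes little, which was not tested.

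The blood-brain barrier keeps plasma lipoproteins out of the brain, and glia pass on cholesterol in small particles built around apolipoproteins. ABC transporters in the cell membrane load cholesterol and phospholipid onto these particles, transfer proteins and lipases remodel them, and lipoprotein receptors take them up. The liver X receptors (LXRs), which sense oxysterols, are known to switch on several of these genes, Apoe, Abca1, Abcg1, Pltp and Lpl among them.

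The libraries held between 20010818 and 22554835 counted reads. Levels are given as reads, as counts scaled to the library total (CPM), and, where genes are compared with each other, as FPKM, which also divides by transcript length. Intervals are exact 95% intervals. They cover counting error only and hold no variation between cultures. Whether intervals of CPM overlap is stated on library totals, and other scalings change this for some neighbours. PCR copies of a read are not independent molecules, so the intervals may be too narrow even for counting error. No difference between conditions has a replicate check and no test of the conditions was possible. Since bulk RNA was read, fewer cells of a type and less RNA per cell cannot be told apart.

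Apoe and Abca1 had the most alike profiles of any pair of the 9 genes over the 5 libraries, and Pltp and Apod had the most different ones. The 250 bases before the start of these 4 genes are shown for that reason, from the RefSeq promoter table on GRCm38.p6, each 5′ to 3′ along the gene and on the minus strand of the genome. They lie at chr4:53159896-53160145 for Abca1, chr7:19699189-19699438 for Apoe, chr2:164857709-164857958 for Pltp and chr16:31314809-31315058 for Apod. Capitals mark matches to 1 of 5 motifs that were searched on both strands.
Abca1: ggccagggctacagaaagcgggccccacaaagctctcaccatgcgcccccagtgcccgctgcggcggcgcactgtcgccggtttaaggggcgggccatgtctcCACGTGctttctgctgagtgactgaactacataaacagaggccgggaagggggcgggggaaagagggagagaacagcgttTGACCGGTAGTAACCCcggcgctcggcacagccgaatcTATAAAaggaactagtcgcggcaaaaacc
Apoe: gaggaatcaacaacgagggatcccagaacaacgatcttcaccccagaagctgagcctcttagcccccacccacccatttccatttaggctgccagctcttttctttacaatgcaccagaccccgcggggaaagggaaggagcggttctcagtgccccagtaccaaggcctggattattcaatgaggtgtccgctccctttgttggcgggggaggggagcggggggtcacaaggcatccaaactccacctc
Pltp: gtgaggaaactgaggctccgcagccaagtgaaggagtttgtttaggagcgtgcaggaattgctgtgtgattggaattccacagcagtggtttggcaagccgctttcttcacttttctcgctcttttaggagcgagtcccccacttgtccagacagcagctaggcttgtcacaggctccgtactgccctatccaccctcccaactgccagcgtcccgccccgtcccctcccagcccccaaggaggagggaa
Apod: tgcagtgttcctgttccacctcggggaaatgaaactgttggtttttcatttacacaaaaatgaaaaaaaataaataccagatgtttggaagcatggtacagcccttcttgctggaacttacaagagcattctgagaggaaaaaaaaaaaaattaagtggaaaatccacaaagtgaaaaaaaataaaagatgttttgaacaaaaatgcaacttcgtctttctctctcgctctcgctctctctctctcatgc

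The motifs were an LXR-type direct repeat (NGGTNANNNNNGGTNA), the Nurr1 octamer (AAAGGTCA, whose last letters can overlap a repeat), a forkhead core (TGTTTAC), an E-box (CACGTG) and a TATA box (TATAAA). Abca1 held the LXR-type repeat from 67 to 52 bases before its start, on the strand opposite to the gene, an E-box from 147 to 142 bases before it and a TATA box from 29 to 24 bases before it. Among 32851 promoter windows, which run from 250 bases before to 50 after a start, the LXR-type repeat was found in 0.718%, the Nurr1 octamer in 1.51%, the forkhead core in 3.65%, the E-box in 7.15% and the TATA box in 13.6%. Pltp held TATA box letters from 36 to 41 bases after its start, outside the run shown. None of the 5 motifs was found in the windows of Apoe at the counted transcript's start, Apod, Lrp1 and Vldlr. The nearest Vldlr start searched lay 337 bases from the start of the counted transcript. Of the other 2 Apoe starts in the table, 1 held TATA box letters and 1 a forkhead match. Promoters of 6 of the 9 genes were in the table, and those of Clu, Abcg1 and Lpl were not used here. A match describes letters only, and the lack of one says nothing about a factor.

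Apoe was the most abundant of the 9 genes in every library, and Clu was second in every library. Apoe encodes the main lipid carrier secreted by astrocytes and, when they are activated, microglia. It lies on chromosome 7 of GRCm38.p6 from 19696244 to 19701310. Apoe had 20958 reads in untransduced VM astrocytes, 46634 in C, 14704 in NF, 43434 in Ctx astrocytes and 45820 in Ctx NPCs. In CPM these were 984, 2068, 723, 2026 and 2289.8, so that C, Ctx astrocytes and NPCs lay together at the high end and NF was lowest, 3.17-fold below NPCs. Counting intervals of neighbours were apart on library totals, but the order of C, Ctx astrocytes and NPCs changed under other scalings. In FPKM, Apoe ranged from 566 in NF, where it ranked 51st of all transcripts, to 1793 in NPCs, where it ranked 9th.

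Clu, the gene of clusterin, a secreted chaperone also called apolipoprotein J, is on chromosome 14 from 65968483 to 65981548. Its reads were 16701 in untransduced VM astrocytes, 10701 in C, 14049 in NF, 32172 in Ctx astrocytes and 10829 in NPCs. Clu was lowest in C, at 474 CPM, and highest in Ctx astrocytes, at 1501 CPM, a 3.16-fold span. On library totals there was no overlap between neighbours. Its order differed from that of Apoe, since C was at the high end for Apoe and lowest for Clu. The FPKM of Apoe was 1.79-fold that of Clu in untransduced VM astrocytes, 6.21-fold in C, 1.49-fold in NF, 1.92-fold in Ctx astrocytes and 6.03-fold in NPCs.

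Apod, on chromosome 16 from 31296192 to 31314808, encodes a lipocalin that binds arachidonic acid and other small lipids. It was counted 300 times in untransduced VM astrocytes, 532 in C, 162 in NF, 23 in Ctx astrocytes and 759 in NPCs. Its 35.3-fold span, from 1.07 CPM in Ctx astrocytes to 37.9 CPM in NPCs, was the widest of the 9 genes, and all neighbouring intervals were apart. In Ctx astrocytes its FPKM was 0.516, the only value of the 9 genes below 1 in these libraries.

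Abca1 exports cholesterol and phospholipid onto lipid-poor apolipoproteins. It lies on chromosome 4 from 53030789 to 53159988. Abca1 had 5235 reads in untransduced VM astrocytes, 13765 in C, 6910 in NF, 13392 in Ctx astrocytes and 10367 in NPCs. As with Apoe, C, Ctx astrocytes and NPCs were high, at 610.3, 625 and 518 CPM, and the untransduced and NF libraries were low, at 246 and 339.7 CPM. On library totals, C and Ctx astrocytes did not differ beyond counting error. The differences between the profiles of Apoe and Abca1, on the log2 scale after centring each gene, had a root mean square of 0.36 over the 5 libraries.

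Abcg1, which loads cholesterol onto particles that already hold lipid, is on chromosome 17 from 31057694 to 31117984. It had 591 reads in untransduced VM astrocytes, 2783 in C, 619 in NF, 407 in Ctx astrocytes and 180 in NPCs. C stood far above the other libraries, at 123 CPM against at most 30.4 CPM in NF. The untransduced and NF libraries overlapped, and the whole span was 13.7-fold. In FPKM Abca1 exceeded Abcg1 in every library, from 2.80-fold in C to 32.6-fold in NPCs.

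Pltp encodes phospholipid transfer protein, which moves phospholipid between lipoproteins. Its gene runs from 164839518 to 164857708 on chromosome 2 and overlaps Ctsa there, and since the sources used here give no strand for the counting, reads in the shared stretch are uncertain. Pltp had 4963 reads in untransduced VM astrocytes, 2739 in C, 4384 in NF, 5778 in Ctx astrocytes and 202 in NPCs. NPCs stood apart at 10.1 CPM, 26.7-fold below Ctx astrocytes at 269.6 CPM. Among the astrocyte libraries C was lowest, at 121 CPM, and no neighbouring intervals overlapped.

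Lpl encodes lipoprotein lipase, which hydrolyses the triglycerides of lipoproteins. It is on chromosome 8 from 68880555 to 68906932. Reads of Lpl numbered 429 in untransduced VM astrocytes, 1660 in C, 489 in NF, 472 in Ctx astrocytes and 83 in NPCs. C was again well above the rest, at 73.6 CPM, and NPCs were lowest at 4.15 CPM, a 17.7-fold span. The level of Ctx astrocytes overlapped with those of both the untransduced and NF libraries. Lpl and Abcg1 were the second most alike pair, with a root mean square difference of 0.44 in log2.

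Of the receptors, Lrp1 was the more abundant in every library. It is a large endocytic receptor for lipoproteins that carry apolipoprotein E and for many other ligands, and its gene is on chromosome 10 from 127538157 to 127621148. Lrp1 had 25517 reads in untransduced VM astrocytes, 37148 in C, 32432 in NF, 26983 in Ctx astrocytes and 10497 in NPCs. Its 4 astrocyte libraries lay between 1198 and 1647 CPM, and NPCs were at 525 CPM, 3.14-fold below C. The locus overlaps the noncoding genes Gm16217 and Gm51820.

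Vldlr, on chromosome 19 from 27216480 to 27254231, is a receptor for lipoproteins and for reelin. It had 2734 reads in untransduced VM astrocytes, 2447 in C, 3090 in NF, 2091 in Ctx astrocytes and 2918 in NPCs. The levels stayed between 97.5 and 152 CPM, and this 1.56-fold span was the narrowest of the 9 genes. NF and NPCs, the highest libraries, overlapped. The FPKM of Lrp1 was between 2.00-fold that of Vldlr, in NPCs, and 8.44-fold, in C.

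**Figure D1:**
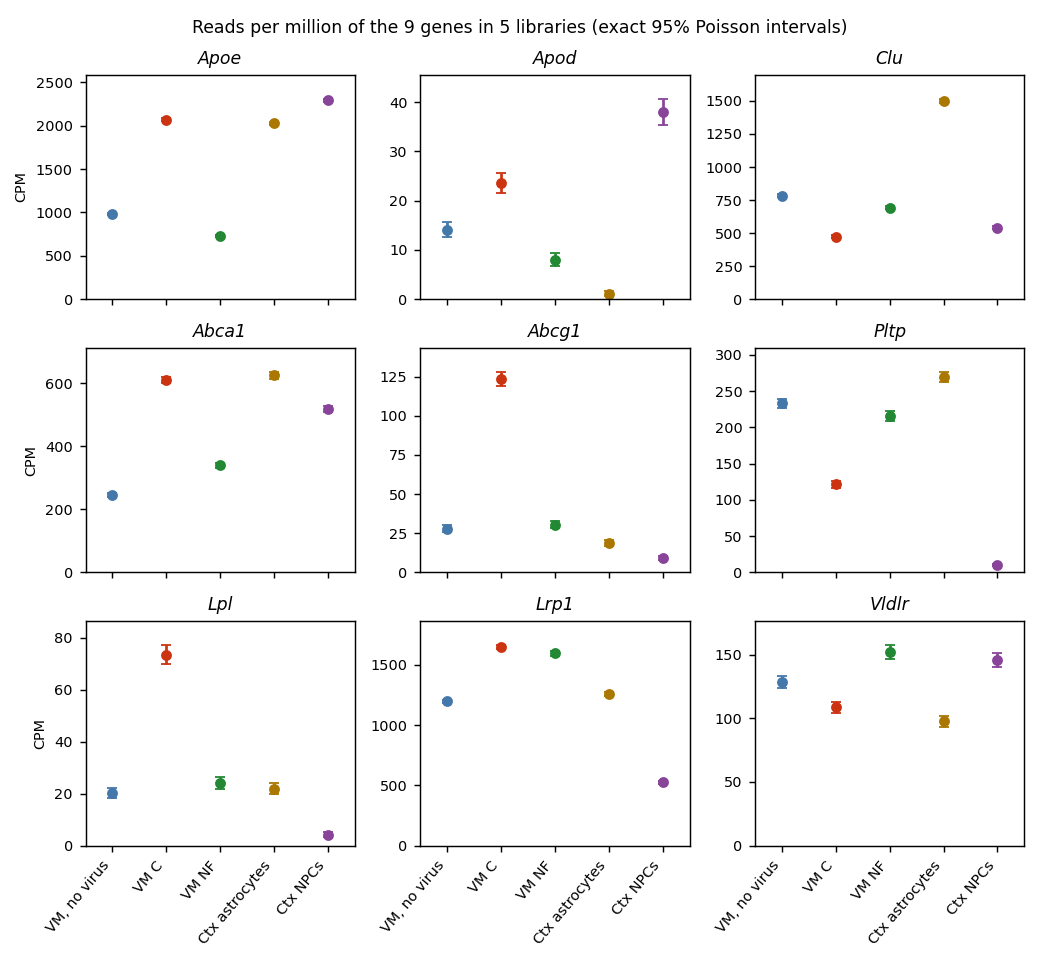
CPM of each of the 9 genes (y axis, linear, from 0) in the 5 libraries (x axis), as points with exact 95% Poisson intervals of the read count. Abcg1 and Lpl are highest in the library titled C, Pltp and Lrp1 are lowest in NPCs, and Apod runs from 1.07 CPM in Ctx astrocytes to 37.9 CPM in NPCs.

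Summed over the 9 genes, 0.363% of all reads fell on them in untransduced VM astrocytes, 0.525% in C, 0.378% in NF, 0.582% in Ctx astrocytes and 0.408% in NPCs. Apoe made up 19.1% of these reads in NF and 56.1% in NPCs, the lowest and highest shares. The order of the genes by FPKM was the same in NF and Ctx astrocytes, where Pltp, Lrp1, Abca1, Vldlr, Lpl, Abcg1 and Apod followed Apoe and Clu. In NPCs Apod stood above Vldlr and Pltp, while it was last in C, NF and Ctx astrocytes.

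**Figure D2:**
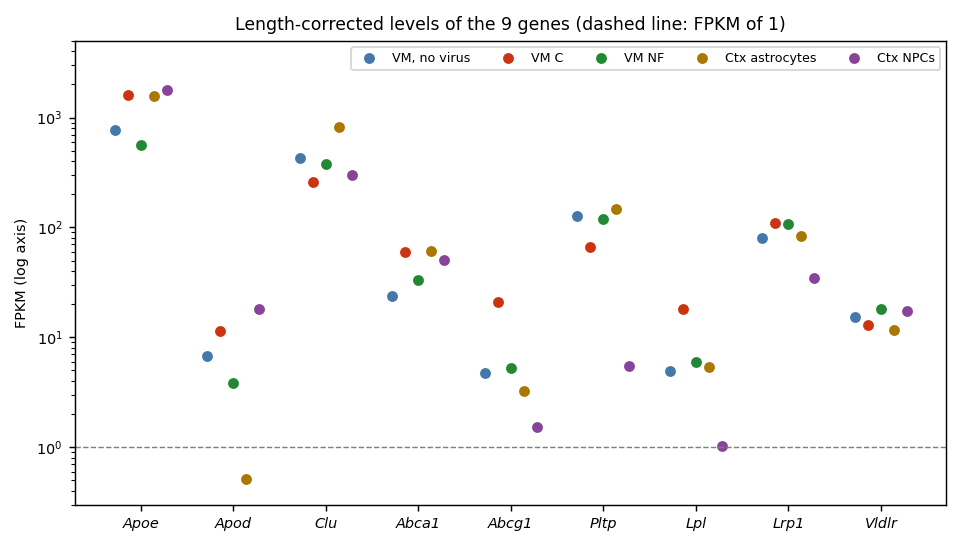
FPKM (y axis, log scale) of the 9 genes (x axis) in the 5 libraries (colours), with a dashed line at an FPKM of 1. Apoe lies between 566 and 1793 and is above the other 8 genes in each library, and the only point under the line is Apod in Ctx astrocytes, at 0.516.

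The question behind the VM libraries was what Nurr1 and Foxa2 change in midbrain astrocytes. In NF against C, 4 of the 9 genes were past 2-fold and all 4 were lower, where 19.3% of all 12701 measured transcripts were past 2-fold with 9.73% lower and 9.53% higher. Past 2-fold means a ratio of at least 2-fold either way, for a gene that exceeds an FPKM of 1 in either library of the pair. Abcg1 was 4.05-fold lower in NF (log2 −2.02, interval −2.15 to −1.89), Lpl 3.06-fold lower (−1.61, interval −1.76 to −1.47), Apod 2.96-fold lower (−1.56, interval −1.83 to −1.31) and Apoe 2.86-fold lower (−1.52, interval −1.54 to −1.49). The 4 genes thus hold an apolipoprotein, a lipocalin, a transporter and a lipase, and no receptor. Abca1 was 1.80-fold lower, and the log2 ratios of the others were 0.83 for Pltp, 0.54 for Clu, 0.49 for Vldlr and −0.05 for Lrp1. The median log2 ratio was −0.85 over the 9 genes and −0.016 over all measured transcripts.

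The library titled C also differed from the untransduced VM library. This comparison shares the C library with the one above, so both rest on the same reads of C. Again 4 of the 9 genes were past 2-fold, all higher in C, against 15.8% of transcripts in either direction with 7.30% higher and 8.48% lower. They were Abcg1, 4.44-fold higher (log2 2.15, interval 2.02 to 2.28), Lpl, 3.65-fold higher (1.87, interval 1.72 to 2.03), Abca1, 2.48-fold higher (1.31, interval 1.27 to 1.36), and Apoe, 2.10-fold higher (1.07, interval 1.05 to 1.09). On the lower side, Pltp had a log2 ratio of −0.94, Clu of −0.72 and Vldlr of −0.24. Apod, at 0.74, and Lrp1, at 0.46, were higher in C by less than 2-fold. The median was 0.74 for the 9 genes and −0.013 for all measured transcripts.

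NF and the untransduced VM library were close to each other. None of the 9 genes was past 2-fold, and 0.990% of all transcripts were, with 0.322% higher and 0.668% lower. The log2 ratios of NF to untransduced ran from −0.82 for Apod (interval −1.11 to −0.54) to 0.47 for Abca1 (interval 0.42 to 0.52). Apoe stood at −0.44 and Lrp1 at 0.41, and the interval of Abcg1, −0.031 to 0.30, held 0. Set side by side for 1 gene, Abcg1 had 27.7 CPM in the untransduced library, 123 in C and 30.4 in NF. With 1 library each, the virus and any other difference between these cultures cannot be told apart.

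**Figure D3:**
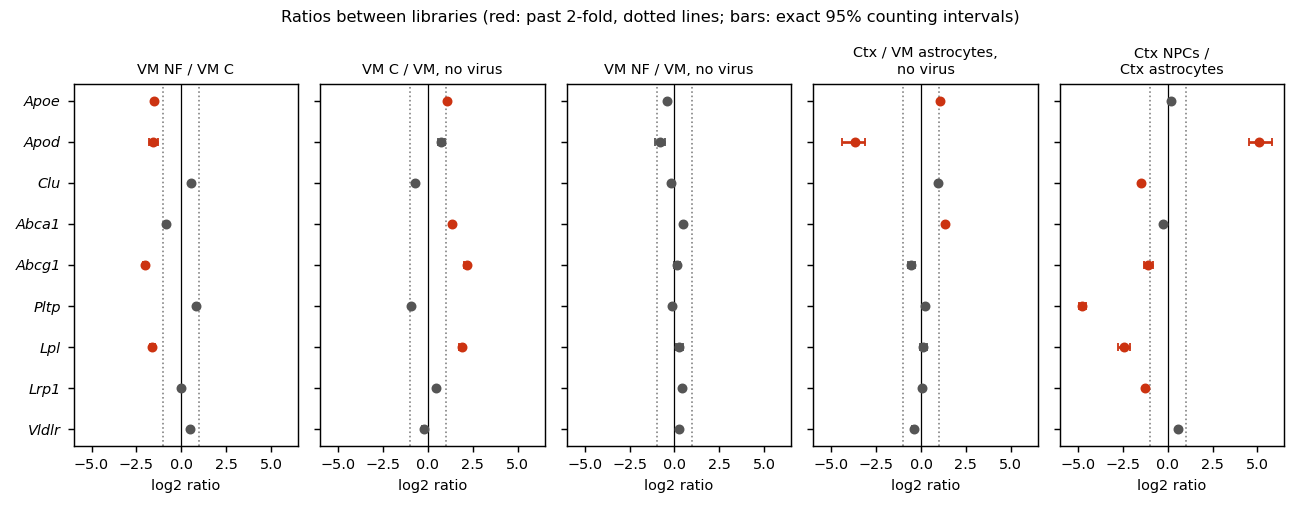
Log2 ratio (x axis) of each of the 9 genes (y axis) in the 5 comparisons (panels), as points with exact 95% counting intervals, red where past 2-fold, with dotted lines at 2-fold. In NF against C the 4 red points are all lower, in C against untransduced VM the 4 red points are all higher, and in NF against untransduced VM there is none.

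Ctx and VM astrocytes, both without virus, were compared for differences between brain regions. In Ctx astrocytes 3 of the 9 genes were past 2-fold, where 14.4% of all transcripts were. Abca1 was 2.54-fold higher (log2 1.35, interval 1.30 to 1.39) and Apoe 2.06-fold higher (1.04, interval 1.02 to 1.07), where 4.49% of transcripts were higher. Apod was 12.9-fold lower (−3.69, interval −4.39 to −3.10), where 9.89% of transcripts were lower. Clu was 1.91-fold higher, just within 2-fold. The receptors Lrp1 and Vldlr had log2 ratios of 0.07 and −0.40, Pltp of 0.21 and Abcg1 of −0.55. The interval of Lpl, −0.063 to 0.32, held 0.

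Between Ctx NPCs and Ctx astrocytes the most of the 9 genes differed, 6, and so did the most transcripts, 38.0%. Here 5 genes were lower in NPCs, against 17.9% of transcripts. Pltp was 26.6-fold lower (log2 −4.74, interval −4.95 to −4.54), Lpl 5.28-fold (−2.40, interval −2.76 to −2.07), Clu 2.77-fold (−1.47, interval −1.50 to −1.44), Lrp1 2.40-fold (−1.26, interval −1.30 to −1.23) and Abcg1 2.11-fold (−1.08, interval −1.34 to −0.82). Apod was 34.6-fold higher in NPCs (5.11, interval 4.55 to 5.81), against 20.1% of transcripts. As its FPKM in Ctx astrocytes was under 1, Apod is lost where both libraries must exceed 1, which leaves 5 of the 9 genes past 2-fold here and 2 in Ctx against VM astrocytes. Apoe, at a log2 ratio of 0.18, Abca1, at −0.27, and Vldlr, at 0.58, stayed within 2-fold. With edgeR's TMM normalization or DESeq2's size factors, which lower the median of all transcripts in this comparison by 0.18 in log2, the Apoe ratio became −0.0084 or −0.0013, so no direction is given for it. The median was −1.08 for the 9 genes and 0.19 for all measured transcripts.

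Lists of marker genes of the cell types that such cultures can hold were summed beside these results. The astrocyte list, led by Gfap, Slc1a3 and Atp1b2, reached between 2049 and 2606 CPM in the VM libraries, 5965 in Ctx astrocytes and 11376 in NPCs. Of its 11 measured genes, 4 were past 2-fold higher in NPCs than in Ctx astrocytes, where 20.1% of all transcripts were. Slc1a2 and Atp1b2 were past 2-fold lower, where 17.9% of all transcripts were. Atp1b2 was at 674 CPM in NPCs against 1697 in Ctx astrocytes. In the library labelled neural progenitor cells, Gfap had 6123 CPM, Mbp, a myelin protein gene, had 3769 CPM and Gpr17, a gene of oligodendrocyte progenitors, had 1268 CPM, against 1298, 11.7 and 0 CPM in Ctx astrocytes. The oligodendrocyte list summed to 7759 CPM in NPCs and to at most 431 CPM, in C, elsewhere, and the oligodendrocyte progenitor list to 3752 CPM in NPCs and at most 818, in C. The part of these cells in the NPC values, Apod included, was not tested.

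The microglial list had 16 of its 17 genes in the files, with Itgam and Ctss among the most abundant. Its sum was 491 CPM in untransduced VM astrocytes, 1884 in C, 362 in NF, 181 in Ctx astrocytes and 27.9 in NPCs, where Trem2 was at 0 reads. All 15 microglial markers measured in C and untransduced VM were higher in C, 14 of them past 2-fold. Of all transcripts, 7.30% were past 2-fold higher in C and 8.48% lower, and the marker counts that follow are to be read against these shares. The microglial sum in C was 3.84-fold that of untransduced VM and 5.20-fold that of NF. Apoe, Abca1, Abcg1 and Lpl were higher in C together with the microglial list. Most oligodendrocyte markers were higher in C too, 8 of 10 measured past 2-fold against untransduced VM. The other 2 were lower in C, Aspa past 2-fold and Cnp at 164 against 215 CPM. The list summed to 274 CPM in untransduced VM, 431 in C and 221 in NF. All 9 measured oligodendrocyte progenitor markers were higher in C than in untransduced VM, 5 of them past 2-fold, with sums of 410.1, 818 and 356 CPM in the same order. The part of these cell types in the levels of C was not tested. Against untransduced VM astrocytes, Ctx astrocytes had a 2.71-fold lower microglial sum and a 2.29-fold higher astrocyte sum. Apoe and Abca1 were higher in Ctx astrocytes. In NPCs the microglial sum was lowest and the astrocyte sum, at 11376 CPM, was highest, and Apoe was at 2289.8 CPM. The part of either cell type in these levels was not tested. Fibroblast and mural markers, led by Acta2, Col1a1 and Tagln, summed to 4793 CPM in untransduced VM, 3043 in C, 4643 in NF, 2319 in Ctx astrocytes and 639.8 in NPCs. Pltp, like this list, was lowest in NPCs, but it was highest in Ctx astrocytes, where the list was second lowest, and the part of these cells in it was not tested. Ependymal and choroid plexus markers, led by Foxj1, Ttr and Rsph1, were at 399.9 CPM in untransduced VM and 70.6 in C. Neuron markers, led by Stmn2, Map2 and Gap43, summed to between 601 CPM in Ctx astrocytes and 1250 CPM in NPCs. Of 9 measured in C and untransduced VM, 5 were past 2-fold higher in C and none was past 2-fold lower. Stmn2 was lower in C, at 359 against 581 CPM, and so was the sum of the list, at 797 against 883 CPM. Proliferation markers, led by Top2a, Mki67 and Cdk1, were at 110 CPM in Ctx astrocytes and between 421 and 495 CPM in the other libraries.

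**Figure D4:**
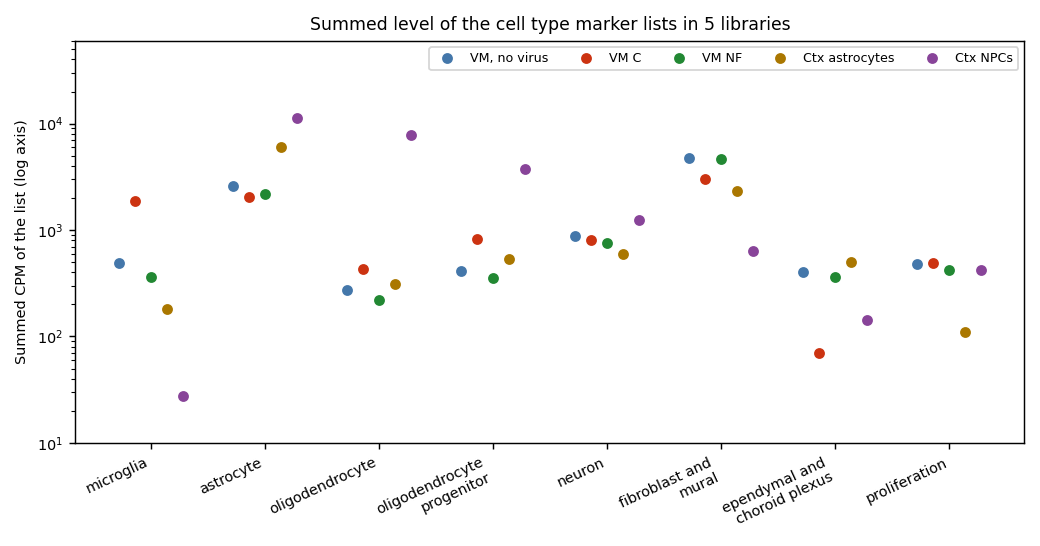
Summed CPM (y axis, log scale) of 8 marker lists (x axis) in the 5 libraries (colours). The microglial sum is highest in the library titled C, at 1884 CPM, and lowest in NPCs, at 27.9 CPM, and the oligodendrocyte sum is highest in NPCs, at 7759 CPM.

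Other genes of lipid handling were read from 8 lists. Scavenger and lipid receptors moved most between C and the other VM libraries. Of 8 measured, 6 were past 2-fold higher in C than in untransduced VM and 1, Scarb1, was lower. The same counts, with the directions turned, were found in NF against C. Cd36, a fatty acid and oxidized lipoprotein receptor, had 83.7 CPM in untransduced VM, 438 in C, 78.4 in NF, 26.7 in Ctx astrocytes and 2 reads in NPCs. Msr1, the macrophage scavenger receptor, had 36.2, 226 and 32.1 CPM in the VM libraries, 10.3 in Ctx astrocytes and no read in NPCs. Trem2 and Tyrobp are on this list and on the microglial list.

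Of 13 measured LXR receptors, partners and further targets, 2 were past 2-fold higher in C than in untransduced VM and none was lower, with a median of 0.23. That share is near the 15.8% of all transcripts past 2-fold in this comparison and says nothing particular about the list. The counts of all 8 lists are to be read against 7.30% higher and 8.48% lower for C against untransduced VM, 9.53% and 9.73% for NF against C, and 20.1% and 17.9% for NPCs against Ctx astrocytes. In NF against C, 4 were lower, Nr1h3, Smpdl3a, Apoc1 and Mylip, and none was higher, with a median of −0.25. In this and the following lists, genes that make up a count of 5 or fewer were named after their values were seen. Mylip, a ubiquitin ligase, had 371 reads in untransduced VM, 1355 in C and 407 in NF. The fatty acid desaturase genes Scd1 and Scd2 followed another order. Scd2 was between 673 and 752 CPM in the VM libraries, 2147 in Ctx astrocytes and 5999 in NPCs, and Scd1 was between 108 and 137, then 345 and 859.8. Srebf1, Scd1, Scd2 and Fasn were past 2-fold higher in NPCs than in Ctx astrocytes, and Mylip was past 2-fold lower.

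Only 5 of the 24 other apolipoproteins listed were measured in each comparison, and the list summed to between 6.35 CPM, in NPCs, and 51.0 CPM, in C. Apoc1 was the member past 2-fold higher in C than in untransduced VM. Apol9a and Apol9b, near-identical copies between which reads may be split, had 22.0 and 12.7 CPM in untransduced VM and 3 and 0 reads in NPCs. Of 7 other ABCA and ABCG transporters measured, Abcg2 was past 2-fold, higher in C than in untransduced VM (222 against 108 CPM) and lower in NF (95.3 CPM) than in C. In NPCs it had 19.8 CPM. Abca8b was between 7.37 and 11.5 CPM in the astrocyte libraries and at 3.10 CPM in NPCs.

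Of the 17 other lipoprotein receptors and adaptors measured, 4 were higher and 2 lower in NF than in C. Dab2, an endocytic adaptor, was lower with Mylip, at 350 CPM in C and 151 CPM in NF, and Lrp2, Sorl1, Sort1 and Dab1 were higher. Of the lipases and their regulators, Lipe was the gene past 2-fold in NF against C, higher in NF, and in C against untransduced VM, lower in C. Lipa, the lysosomal acid lipase, had 161 CPM in untransduced VM, 289.6 in C, 159 in NF, 113 in Ctx astrocytes and 27.8 in NPCs, and Angptl4, an inhibitor of lipoprotein lipase, lay between 50.2 and 100 CPM in the astrocyte libraries and at 0.900 CPM in NPCs.

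For cholesterol inside the cell, Ch25h was highest in C and Stard5 was lower in C than in the other VM libraries, and both were past 2-fold lower in NPCs than in Ctx astrocytes. Ch25h, which makes an oxysterol, had 28.2 CPM in untransduced VM, 71.7 in C, 14.5 in NF, 2.57 in Ctx astrocytes and 0.2499 in NPCs. Stard5, a sterol transfer protein, had 141 CPM in untransduced VM, 50.3 in C, 146 in NF, 124 in Ctx astrocytes and 17.5 in NPCs. Of 15 genes of this kind measured, these were the 2 past 2-fold in C against untransduced VM. Of 17 genes of fatty acid binding and lipid droplets, 5 were higher in C than in untransduced VM and 2 lower. The higher ones were Fabp3, Fabp4, Acsbg1, Acsl4 and Plin2, and the lower ones Slc27a3 and Plin4. Fabp4 had 5.45 CPM in untransduced VM and 13.2 in C, and Plin4, a lipid droplet coat protein, had 6.99 and 1.15. In NF against untransduced VM, 1 gene of all 8 lists was past 2-fold, where 0.990% of all transcripts were. That count is near this share and says nothing particular about the lists. The gene was Apoc2, which was lower, with 28 reads in untransduced VM and 11 in NF.

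**Figure D5:**
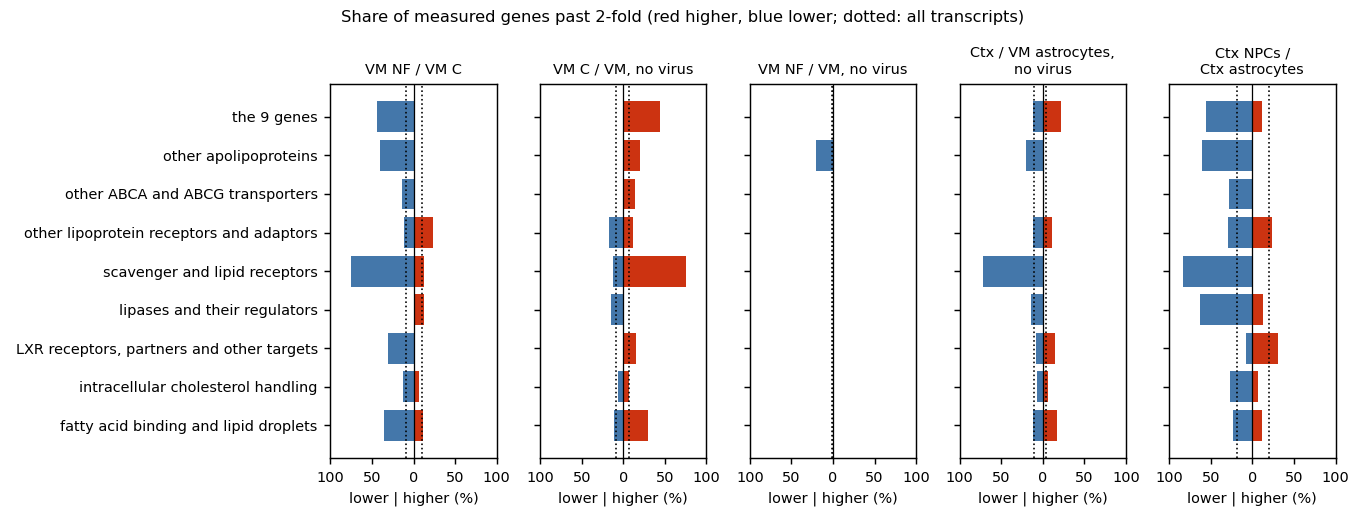
Percent of the measured genes of each list (y axis) that were past 2-fold in each of the 5 comparisons (panels), lower to the left in blue and higher to the right in red, with dotted lines at the percent of all measured transcripts. Of 8 scavenger and lipid receptors, 6 are lower in NF than in C, and the row of the 9 genes is empty in NF against untransduced VM.

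For each of the 9 genes, the transcript with the most alike profile was found as that with the smallest root mean square difference of centred log2 CPM over the 5 libraries, among transcripts with FPKM > 1 in at least 1 library. The nearest were Adap1 for Apoe (0.11), Cdc6 for Apod (0.23), Me3 for Clu (0.082), Lonrf3 for Abca1 (0.19), Slc16a10 for Abcg1 (0.15), Ltb4r1 for Pltp (0.14), Hbegf for Lpl (0.19), Atp7a for Lrp1 (0.050) and Gabra3 for Vldlr (0.038). The next nearest were Trmt6 and Cela1 for Apoe, Hivep3 and Xk for Abca1, and Slc7a8 and Clcf1 for Abcg1. None of the nearest genes was another of the 9. All points of such a profile share their 5 libraries, and likeness over so few is a description.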

How the data were processed

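The data are RNA-seq of 5 mouse libraries, each the only library of its condition. Per the study's methods, the authors applied a quality trim at a score of 20, aligned with STAR to GRCm38/mm10, and used HTSeq to count reads over the exons of RefSeq Release 105. The submitters' processing notes name bcl2fastq 1.8.4, STAR, HTSeq, DESeq and the build mm9 instead. Which build the counts rest on is thus not settled. No level or ratio was computed from coordinates after counting, and positions and promoters come from RefSeq on GRCm38.p6. The deposited counts are whole reads for each transcript, not normalized. The deposited FPKM, made by the authors from count, transcript length and library total, was recomputed to within a relative difference of 4.09e-05. Of 20178 transcripts, 19993 were paired with a symbol.

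Log2 ratios were computed from counts divided by the library total, after adding 0.5 reads in proportion to that total. Ratios have exact Clopper-Pearson and CPM exact Poisson 95% intervals, which cover counting error only. No pair of libraries held identical values. The scripts were tested on simulated counts. As alternatives, scaling by TMM (edgeR), by size factors (DESeq2) or by the upper quartile was tried, as were 5 or no reads added, other filters on low values and other fold cutoffs.

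The 9 genes and all lists were chosen with earlier results of these data known. Also named were Nr4a2 and Foxa2, the 2 genes of each lipid list with the largest ratio of highest to lowest CPM (with FPKM > 1 in at least 1 library and CPM of at least 5 in the highest, and 3 reads standing for fewer), the 3 most abundant genes of each marker list and the 3 transcripts most like each of the 9 genes. Some genes that meet this rule are not reported here. Software was DESeq2 1.42.0 and edgeR 4.0.16 in R 4.3.3, and matplotlib 3.10.9, pandas 2.3.3, scipy 1.17.1 and numpy 2.4.6 in Python 3.11.15.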

Additional observations from a re-analysis of the deposited data

How the results depend on the processing

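With 1 library per condition, no replicate could be left out. No paired analysis was possible because each condition has 1 library and no replicate numbers are shared as a pairing. Of 225 log2 ratios of the 9 genes under other scalings or added reads, 187 stayed within the counting interval, 38 moved outside it, and 2, both of Apoe in Ctx NPCs against Ctx astrocytes, changed sign. The other scalings lowered the median of all transcripts in that comparison by 0.17 to 0.18 in log2. They left the genes past 2-fold the same in all 5 comparisons. Of 90 counts, 69 stayed within 1.5 times the value given and 21 did not. Without a filter on low values the transcripts past 2-fold numbered 4841 for NF against C, 4330 for C against untransduced VM, 1779 for NF against untransduced VM, 4078 for Ctx against VM astrocytes and 7448 for NPCs against Ctx astrocytes, where 2446, 2004, 123, 1806 and 4797 passed with it. With FPKM above 1 in both libraries they numbered 1323 for C against untransduced VM, 62 for NF against untransduced VM and 1169 for Ctx against VM astrocytes. With a 1.5-fold cutoff they numbered 4818, 4066, 833, 3447 and 7434 in the same 5 comparisons, and 7 of the 9 genes passed for C against untransduced VM and 1, Apod, for NF against untransduced VM. With a 2.6-fold cutoff they numbered 1471, 1246, 35 and 1156 in the first 4 comparisons, and 2 of the 9 genes passed for C against untransduced VM and 1, Apod, for Ctx against VM astrocytes. These follow from the cutoffs and filters themselves. The lowest level taken as measurable, 3 reads, was between 0.133 and 0.150 CPM. Among the 9 genes, Apod in Ctx astrocytes had the fewest reads, 23.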
